A study of Homo sapiens with 6 samples.

Results

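The proteasome is the protease that removes ubiquitin-tagged proteins from the cell, and the transcripts of its subunits were followed here in mitotic HEK293T cells with and without extra Staufen1 (Stau1). Members were the rows of the array table whose gene symbol has the form PSMA to PSMG followed by a number, and there were 46 such rows among 37879 in all. They comprised 18 core rows (PSMA and PSMB), 20 rows of the regulatory particle (PSMC and PSMD), 4 activator rows (PSME), 1 inhibitor row (PSMF1) and 3 rows of assembly chaperones (PSMG). Total RNA was measured on 6 Illumina HumanWG-6 v3 arrays, 1 per sample. In 3 samples (control) the cells carried an empty vector, and in 3 (Stau1) they carried plasmids coding for Stau155-FLAG, the FLAG-tagged short isoform of this RNA-binding protein. Cells of both groups had been held in prometaphase with nocodazole, a drug that depolymerizes microtubules, at 50 ng/ml over 15 h per the labels, where the methods of the study state a longer treatment. HEK293T is a human embryonic kidney line with the large T antigen of SV40. The Stau1 plasmid was introduced by transfection and used the promoter of Rous sarcoma virus, and the endogenous STAU1 gene was still present in both groups. The labels do not say that replicates came from separate cultures, so every p-value measures only the spread between these samples.

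A proteasome is built from a barrel-shaped core particle, in which rings of alpha subunits (PSMA genes) gate the entrance and rings of beta subunits (PSMB genes) hold the proteolytic sites, and from regulatory particles that bind, unfold and thread in ubiquitylated substrates. Each subunit is needed in fixed proportion to the others, and the genes are known to be controlled together, among others by the transcription factor NFE2L1. In mitosis the proteasome destroys cyclin B and securin once the anaphase promoting complex has tagged them, a step that the spindle checkpoint withholds in nocodazole.

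Of the 46 rows, 42 were above background, that is at a detection p (against that array's own negative control beads) under 0.05 on at least 3 arrays, and each of these 42 passed on all 6 arrays. Of all 37879 rows 13285 (35.1%) were kept. The arrays resembled each other, with correlations between 0.987 and 0.996 over all kept rows. Their median intensities over all 37879 rows lay between 83.0 and 102, and between 12730 and 13469 rows were detected. Of 6 rows listed as HEK293 markers 5 were kept, all but PAX2, and of 6 rows of mitosis genes all 6 were kept. Neither list is particular to this line or stage, and with no unarrested samples among the 6 the arrest itself could not be checked. The blood markers PTPRC, CD74, SPI1 and CD3E were detected on 0 arrays, and of 4 fibroblast markers COL1A1 was kept. The STAU1 row, whose probe position relative to the plasmid insert is not given in the sources used here, had log2 intensities of 11.21, 11.39 and 11.37 in control and of 11.41, 11.53 and 11.48 in Stau1 samples. The groups did not overlap, but the change of 0.15 ± 0.09 (SE, n = 3 per group) did not pass the test (limma, adjusted p = 0.999).

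The transcripts of the proteasome were at nearly the same level with and without the Stau1 plasmid. Changes are given as the log2 intensity of Stau1 minus that of control samples. In RNA from a whole culture, fewer cells of a kind and less RNA per cell cannot be told apart. Over the 42 kept members the median change was -0.02, with 17 higher and 25 lower, against -0.00 over all kept rows, of which 49.4% were higher. These medians depend on the scaling: with median scaling in place of quantile normalization the members' median was 0.06, that of the core rows 0.04 and that of all kept rows 0.07. The changes of single members ran from -0.20 (PSMD11) to 0.19 (PSMD13), and 100% of the members lay within 1.2-fold in either direction, against 90.8% of all kept rows. The median absolute change was 0.04 for members and 0.09 for all kept rows. Of the 42 members, 0 passed the threshold of 0.05 after Benjamini-Hochberg adjustment in limma, as did 0% of all kept rows. At an unadjusted p under 0.05 limma held 0 of the 42 members and 3.73% of all kept rows, and the lowest unadjusted p of a member was 0.0928. The 95% intervals of the members, each taken alone, lay between -0.51 and 0.49, which is 0.700-fold to 1.40-fold. The median SD of a member within a group was 0.11, against 0.16 over all kept rows. Members were brighter, with a median log2 intensity of 11.5 over kept members against 7.90 over all kept rows. Of the 46 members 33 had a detection p of 0 on all 6 arrays, and the part of signal over background in the narrow range of changes was not tested. With 3 arrays against 3, an exact two-sided permutation test of a single row cannot give a p below 0.1.

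**Figure D1:**
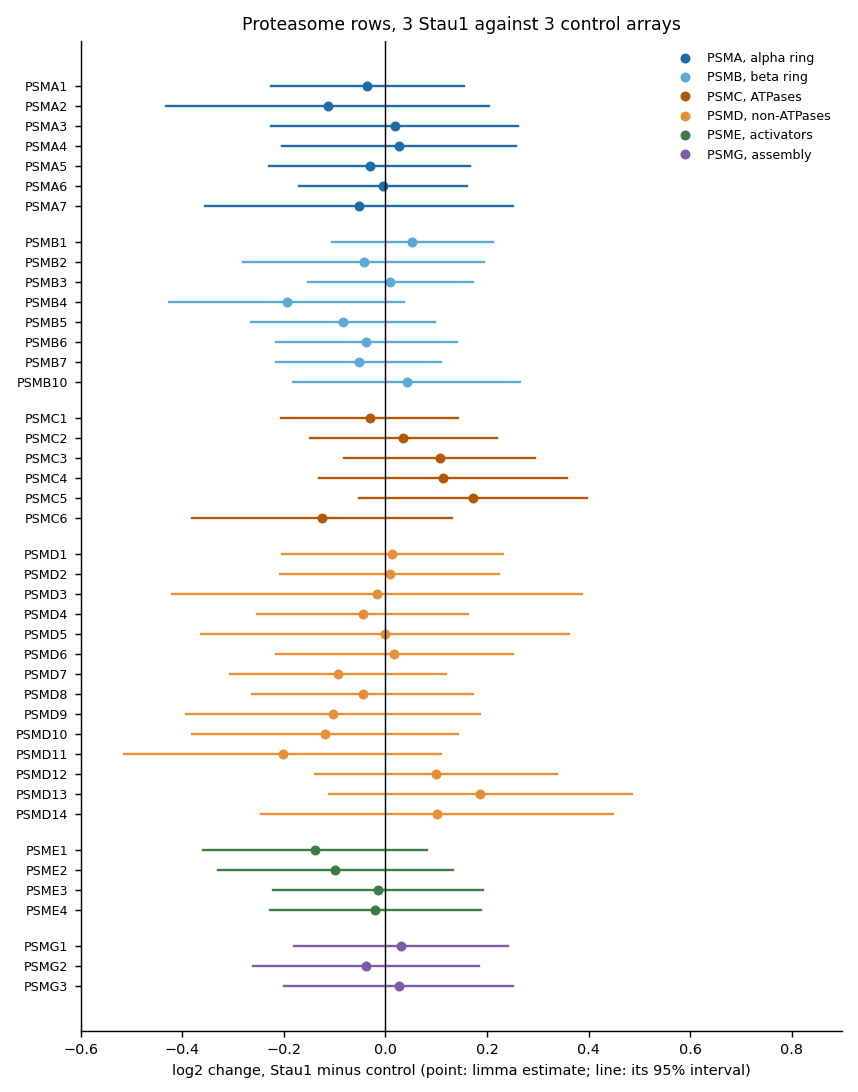
Log2 change (Stau1 minus control) of the 42 kept proteasome rows by family, with the limma estimate as a point and its 95% interval as a line (3 arrays per group). Every interval includes 0, and the points lie between -0.20 (PSMD11) and 0.19 (PSMD13).

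**Figure D2:**
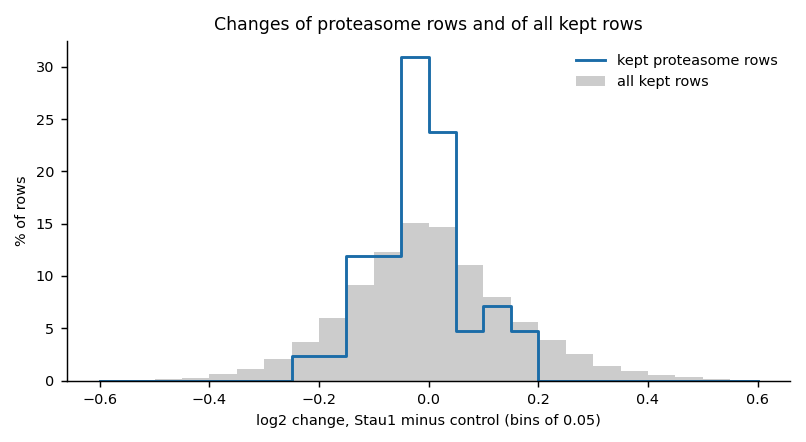
Share of rows (%) in bins of 0.05 of the log2 change, for the 42 kept proteasome rows (line) and all 13285 kept rows (grey bars). The proteasome rows are gathered around 0, with 31.0% in the bin just below 0 and 23.8% in the bin just above it, against 15.1% and 14.7% of all kept rows.

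The proteolytic subunits of the standard core showed no difference past the test. PSMB5, the subunit with chymotrypsin-like activity and the main target of bortezomib, had log2 intensities of 12.76, 12.55 and 12.65 in control and 12.53, 12.54 and 12.64 in Stau1 samples. PSMB6, with caspase-like activity, had 13.39, 13.55 and 13.47 in control and 13.56, 13.32 and 13.42 in Stau1 samples. PSMB7, with trypsin-like activity, had 13.74, 13.60 and 13.58 in control and 13.55, 13.59 and 13.63 in Stau1 samples. In all 3 rows the groups overlapped, and the changes of -0.08 ± 0.08, -0.04 ± 0.08 and -0.05 ± 0.08 (SE, n = 3 per group) were about the size of their errors or smaller. The 95% interval of the change was -0.27 to 0.10 for PSMB5, -0.22 to 0.14 for PSMB6 and -0.21 to 0.11 for PSMB7.

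The inducible counterparts of these subunits were split. In cells exposed to interferon gamma, PSMB8, PSMB9 and PSMB10 replace PSMB5, PSMB6 and PSMB7 in newly built particles to form the immunoproteasome, which alters the peptides made for presentation on class I molecules. PSMB8 was not above background on any array, with intensities of 77.1, 70.8 and 77.6 in control and 64.6, 82.1 and 86.4 in Stau1 samples and detection p values from 0.584 to 0.990. PSMB9 was not above background either, with intensities of 70.8, 65.9 and 94.4 in control and 66.8, 80.0 and 81.2 in Stau1 samples and detection p values from 0.319 to 0.985. Both lie close together on chromosome 6 in the class II region of the major histocompatibility complex. PSMB10, on chromosome 16, was detected on all 6 arrays with a detection p of 0 on each, at log2 intensities of 10.55, 10.44 and 10.33 in control and 10.58, 10.42 and 10.45 in Stau1 samples. Its groups overlapped and its change was 0.04 ± 0.10 (SE, n = 3 per group), with a 95% interval of -0.18 to 0.27. The thymus-specific PSMB11 has no row in the table.

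**Figure D3:**
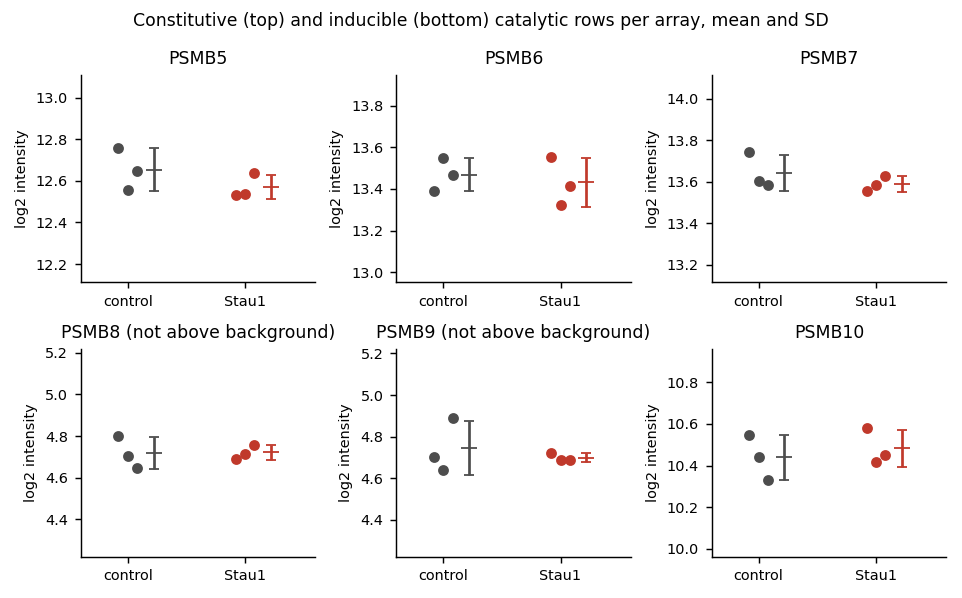
Log2 intensity of the constitutive (top) and inducible (bottom) proteolytic rows on each array, with the mean and SD of each group (n = 3), on axes that each span 1 log2 unit. Control and Stau1 points overlap in all 6 rows, and PSMB8 and PSMB9 were not above background, so their points have no order.

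The promoters of these 3 genes are shown because they share the induction by interferon but not the detection in these cells. The sequences are from RefSeq (GRCh38.p14) and run 5′ to 3′ on the strand of the gene, from 250 bases before a transcript start to 50 bases after it. Capitals mark matches, on either strand, to the interferon-stimulated response element GAAANNGAAA, to the antioxidant response element TGACNNNGC and to the CCAAT box CCAAT, which do not overlap in these windows. PSMB8 has another window in the table, at chr6:32844630-32844929, with no match to any of the 3 motifs.
PSMB8, chr6:32843998-32844297, minus strand: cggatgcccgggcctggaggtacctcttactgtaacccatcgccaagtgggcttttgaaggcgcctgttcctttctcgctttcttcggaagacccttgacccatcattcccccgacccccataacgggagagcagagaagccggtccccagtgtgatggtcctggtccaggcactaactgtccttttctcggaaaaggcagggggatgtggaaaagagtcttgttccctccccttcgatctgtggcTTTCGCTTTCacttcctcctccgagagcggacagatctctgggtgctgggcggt
PSMB9, chr6:32853942-32854241, plus strand: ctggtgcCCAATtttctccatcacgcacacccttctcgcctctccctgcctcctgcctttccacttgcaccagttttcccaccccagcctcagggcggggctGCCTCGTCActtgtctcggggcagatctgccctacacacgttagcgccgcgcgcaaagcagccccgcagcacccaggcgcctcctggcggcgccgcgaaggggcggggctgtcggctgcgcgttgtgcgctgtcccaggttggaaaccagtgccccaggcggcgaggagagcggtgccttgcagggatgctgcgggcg
PSMB10, chr16:67936801-67937100, minus strand: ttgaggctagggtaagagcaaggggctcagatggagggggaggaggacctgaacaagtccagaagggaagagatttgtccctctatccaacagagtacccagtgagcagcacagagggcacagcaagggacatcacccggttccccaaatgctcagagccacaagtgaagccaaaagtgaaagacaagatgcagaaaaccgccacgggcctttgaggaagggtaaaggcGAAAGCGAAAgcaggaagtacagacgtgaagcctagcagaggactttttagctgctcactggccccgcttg
The PSMB8 window held the interferon motif as its reverse complement, beginning 4 bases before the start site, and the PSMB10 window held it as written, beginning 21 bases before it. These letters did not occur in the PSMB9 window, which held an antioxidant motif and a CCAAT box. Among the members 40 of 46 had at least 1 window, 49 windows in all, against 35116 in the table, and PSMA7, PSMB1, PSMB6, PSMB7, PSMD4 and PSMG3 had none. The interferon motif lay in 6 of the members' 49 windows (12.2%) and in 3.57% of all windows. Apart from PSMB8, PSMB10, PSME1 and PSME2, these were windows of the core members PSMA4 and PSMB4. Their matches began 240 and 68 bases before the start site. The antioxidant motif, which also fits sites of NFE2L1, lay in 30.6% of the members' windows and in 13.3% of all, and the CCAAT box in 38.8% and 34.6%. By class the antioxidant motif lay in 3 of 19 core windows (15.8%), close to the share of all windows, in 7 of 21 regulatory (33.3%), 3 of 4 activator (75%) and 2 of 3 assembly windows (66.7%). The assembly window without it, at chr18:12702792-12703091, belongs to PSMG2, whose other window held it. Counted by gene, with a match in any window, the antioxidant motif lay in 37.5% of member genes and in 16.1% of all genes. A match is a stretch of letters and was not tested as a binding site. The antioxidant motif is shown, alone in capitals, in members of the alpha ring, the beta ring, the ATPases and the lid, with 1 example from each. PSMA4 and PSMC5 also had windows at other start sites without this motif. No other alpha ring gene with a window held it.
PSMA4, chr15:78540650-78540679, plus strand: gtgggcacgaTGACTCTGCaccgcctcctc
PSMB3, chr17:38752627-38752656, plus strand: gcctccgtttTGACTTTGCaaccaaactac
PSMC5, chr17:63827654-63827683, plus strand: gaccggatctGCTGTGTCAgcgccgccctc
PSMD12, chr17:67366723-67366752, minus strand: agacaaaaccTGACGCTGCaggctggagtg
These 4 genes were detected on all 6 arrays, and their changes were 0.03 (PSMA4), 0.01 (PSMB3), 0.17 (PSMC5) and 0.10 (PSMD12).

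The alpha ring had no row past the test either. Of its 8 rows 7 were kept, with 2 higher and 5 lower and a median change of -0.03. PSMA2 showed the largest change of these, with log2 intensities of 9.29, 9.91 and 9.72 in control and 9.46, 9.62 and 9.50 in Stau1 samples, a change of -0.11 ± 0.15 (SE, n = 3 per group). The 3 Stau1 samples lay between the lowest and the highest control. PSMA6 showed the smallest, at -0.00 ± 0.08, with all 6 arrays between 13.11 and 13.24. PSMA7 was close to background, at log2 intensities from 5.47 to 5.73 and detection p values from 0.0224 to 0.0461, and its change was -0.05 ± 0.14. Its row is of 1 probe, and the other kept alpha rows lay at 9.29 or above. Whether the probe or the transcript sets the level of PSMA7 was not tested. The remaining alpha subunits PSMA1, PSMA3, PSMA4 and PSMA5 had changes of -0.04, 0.02, 0.03 and -0.03, with overlapping groups. PSMA8, the alpha subunit of the testis proteasome, was not above background on any array, with detection p values from 0.390 to 0.858.

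Of the 10 beta ring rows 8 were kept, with 3 higher and 5 lower. PSMB4, a structural beta subunit, had the lowest unadjusted p of all 42 kept members. Its log2 intensities were 12.00, 12.00 and 11.63 in control and 11.63, 11.70 and 11.72 in Stau1 samples. Control replicates 1 and 2 stood above the other 4 arrays, while control replicate 3 lay at the level of the Stau1 samples. The change was -0.19 ± 0.11 (SE, n = 3 per group, limma unadjusted p = 0.0928, adjusted p = 0.999). PSMB3, another structural subunit, had the smallest change, 0.01 ± 0.07, with 13.19, 13.13 and 13.07 in control and 13.18, 13.13 and 13.10 in Stau1 samples. PSMB1 had 13.92, 13.99 and 14.11 in control and 14.04, 14.06 and 14.08 in Stau1 samples, a change of 0.05 ± 0.07. PSMB2 had 13.23, 12.77 and 12.84 in control and 12.84, 12.89 and 12.98 in Stau1 samples, a change of -0.04 ± 0.11. The groups overlapped in both, and in PSMB2 control replicate 1 was the highest array. Over all 15 kept core rows the median change was -0.04, with 5 higher and 10 lower.

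In the regulatory particle changes went both ways. All 20 rows were kept, 10 were higher and 10 lower, and the median change was 0.00. The median change was -0.04 in the core rows, and the difference between these classes was not tested. The median SD of a row within a group was 0.13 in regulatory and 0.10 in core rows. Among the 6 ATPases, the motor subunits that unfold substrates, 4 were higher and 2 lower, with a median of 0.07. PSMC5 had the largest change among them, with log2 intensities of 11.72, 11.76 and 12.08 in control and 12.05, 11.95 and 12.08 in Stau1 samples. Control replicates 1 and 2 stood below the other 4 arrays, and the change was 0.17 ± 0.10 (SE, n = 3 per group, limma unadjusted p = 0.119, adjusted p = 0.999). PSMC1 had the smallest, -0.03 ± 0.08, with log2 intensities between 13.08 and 13.31. The other ATPases had changes of 0.04 (PSMC2), 0.11 (PSMC3), 0.11 (PSMC4) and -0.13 (PSMC6), and in each of them the groups overlapped. PSMC6 had 11.06, 11.19 and 10.98 in control and 10.69, 11.14 and 11.03 in Stau1 samples, so that its change came with 1 low array, Stau1 replicate 1. The ATPases form 1 ring in which each subunit occurs once, and the signs of the changes differed between its members.

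The 14 PSMD rows included the pair of members whose groups did not overlap, which is 2 of 42 kept members, against 7.91% of all kept rows. PSMD11, a scaffold subunit of the lid whose phosphorylation is known to raise proteasome activity, had log2 intensities of 7.35, 7.46 and 7.26 in control and 7.20, 7.20 and 7.07 in Stau1 samples. Every Stau1 sample lay below every control, and the change was -0.20 ± 0.14 (SE, n = 3 per group, limma unadjusted p = 0.185, adjusted p = 0.999). PSMD13, another lid scaffold, had 7.81, 7.72 and 7.67 in control and 8.04, 7.86 and 7.87 in Stau1 samples. Here every Stau1 sample lay above every control, and the change was 0.19 ± 0.14 (unadjusted p = 0.198 in limma, adjusted p = 0.999). Both rows depended on the background estimate, since with the background inferred from all rows in place of rows of 1 probe the changes were -0.03 and 0.04. PSMD2, the subunit of the base that holds a docking site for ubiquitin-like domains, had the smallest change of the non-ATPase subunits, at 0.01 ± 0.10.

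The subunits with the widest spread over the 6 arrays, chosen after their values were seen, were also in this family. PSMD3, a lid scaffold, had 8.84, 8.02 and 8.29 in control and 8.48, 8.22 and 8.39 in Stau1 samples. PSMD14, the deubiquitinase that cuts the ubiquitin chain from the substrate, had 11.32, 11.99 and 12.14 in control and 11.92, 11.96 and 11.88 in Stau1 samples. In both rows control replicate 1 was the array that stood apart, at the top for PSMD3 and at the bottom for PSMD14. This array was also the most frequent extreme over all kept rows, the highest in 26.9% and the lowest in 25.5% of them. Of the PSMD chaperones that help assemble the base, PSMD10 (gankyrin) had the largest change, -0.12 ± 0.12. It had 11.59, 11.70 and 11.37 in control and 11.21, 11.64 and 11.46 in Stau1 samples. PSMD5, another of these chaperones, had the smallest, -0.00 ± 0.17, with values from 6.25 to 6.73. PSMD9, also a chaperone of the base, had a change of -0.10 ± 0.13. The other lid and base subunits PSMD1, PSMD4, PSMD6, PSMD7, PSMD8 and PSMD12 had changes from -0.09 (PSMD7) to 0.10 (PSMD12), with overlapping groups. PSMD4, a receptor for ubiquitin chains, had 11.62, 11.48 and 11.44 in control and 11.42, 11.39 and 11.60 in Stau1 samples, a change of -0.05 ± 0.10.

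The activators all had small changes on the lower side. PSME1 and PSME2 form the interferon-inducible cap that opens the core without ubiquitin, PSME3 forms the related nuclear cap, and PSME4 is a single-chain activator tied to histone turnover. PSME1 had log2 intensities of 10.52, 10.52 and 10.31 in control and 10.32, 10.27 and 10.34 in Stau1 samples, a change of -0.14 ± 0.10 (SE, n = 3 per group, limma unadjusted p = 0.198). PSME2 had 10.15, 10.45 and 10.33 in control and 10.21, 10.22 and 10.20 in Stau1 samples, a change of -0.10 ± 0.11. In both rows 1 control lay within or below the range of the Stau1 samples, so the groups overlapped. The changes of PSME3 (-0.01 ± 0.10) and PSME4 (-0.02 ± 0.10) were smaller still, and all 3 Stau1 samples of PSME4 lay between 10.89 and 10.93. The median over the 4 activators was -0.06, but with median scaling in place of quantile normalization it was 0.03, while the median of all kept rows came to 0.07.

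PSME1 and PSME2 are neighbours on chromosome 14 and share the interferon motif near their start sites, which is why the stretches around it are shown next, in capitals the motif alone. The PSME2 match has the same 10 letters as that of PSMB10, and the PSME1 match is their reverse complement.
PSME1, chr14:24136189-24136218, plus strand: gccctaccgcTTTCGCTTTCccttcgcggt
PSME2, chr14:24146619-24146648, minus strand: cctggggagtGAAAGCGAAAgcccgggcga
Both genes were detected on all 6 arrays, as was PSMB10, while PSMB8, whose match has the same letters as that of PSME1, was at background.

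PSMF1, an inhibitor that blocks the open ends of the core, was not kept, although its intensities lay far above the background means of the arrays, which were 74.6 to 92.7. Its intensities were 1152, 1494 and 2086 in control and 1567, 1862 and 1831 in Stau1 samples, yet its detection p values ran from 0.0587 to 0.408. Its row combines several probes, for which the deposited detection p is a combined value. Without the filter its log2 intensities were 10.46, 10.60 and 10.66 in control and 10.67, 10.69 and 10.68 in Stau1 samples, a change of 0.11 with a 95% interval of -0.12 to 0.34. The groups did not overlap, by a gap smaller than the spread of the controls.

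The assembly chaperones PSMG1, PSMG2 and PSMG3 help the alpha ring to close. PSMG1 had a change of 0.03 ± 0.10, PSMG2 of -0.04 ± 0.10 and PSMG3 of 0.03 ± 0.10 (SE, n = 3 per group), and the groups overlapped in each. PSMG1 had 12.09, 12.32 and 12.45 in control and 12.25, 12.34 and 12.35 in Stau1 samples. PSMG2, its partner in a heterodimer, had 11.40, 11.49 and 11.25 in control and 11.18, 11.41 and 11.44 in Stau1 samples. PSMG4 has no row in the table.

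The alpha ring rows moved together from array to array, in a way that did not follow the plasmid and was noticed after the values were seen. All 7 kept PSMA rows lay above their own 6-array mean on both replicate 2 arrays and below it on both replicate 1 arrays, a pattern met by 11.8% of all kept rows. PSMA7 was so close to background that its differences can hardly be read, and the pattern held in the 6 other rows as well. The median deviations of the PSMA rows were -0.12, 0.10 and 0.00 on the controls and -0.09, 0.09 and -0.04 on the Stau1 arrays. The same pattern was met by 0 of 8 PSMB rows, 1 of 6 PSMC rows (PSMC2), 2 of 14 PSMD rows (PSMD1 and PSMD6), 0 of 4 PSME rows and 1 of 3 PSMG rows (PSMG1). On control replicate 1, where PSMA rows were low, the PSMB rows had a median deviation of 0.11, and 5 of 8 had their highest value there, against 26.9% of all kept rows. The count of 7 was the same without background correction, with the background from all rows, with an offset of 50, with cyclic loess, with median scaling and with no filter. Under a detection p below 0.01 on all arrays it was 5, since PSMA1 and PSMA7 were then not kept. These settings use the same 6 arrays that showed the pattern, so they cannot test it. The pattern counts signs alone, and the 6 arrays of PSMA6 spanned only 0.125. The labels do not call the replicate numbers a batch.

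**Figure D4:**
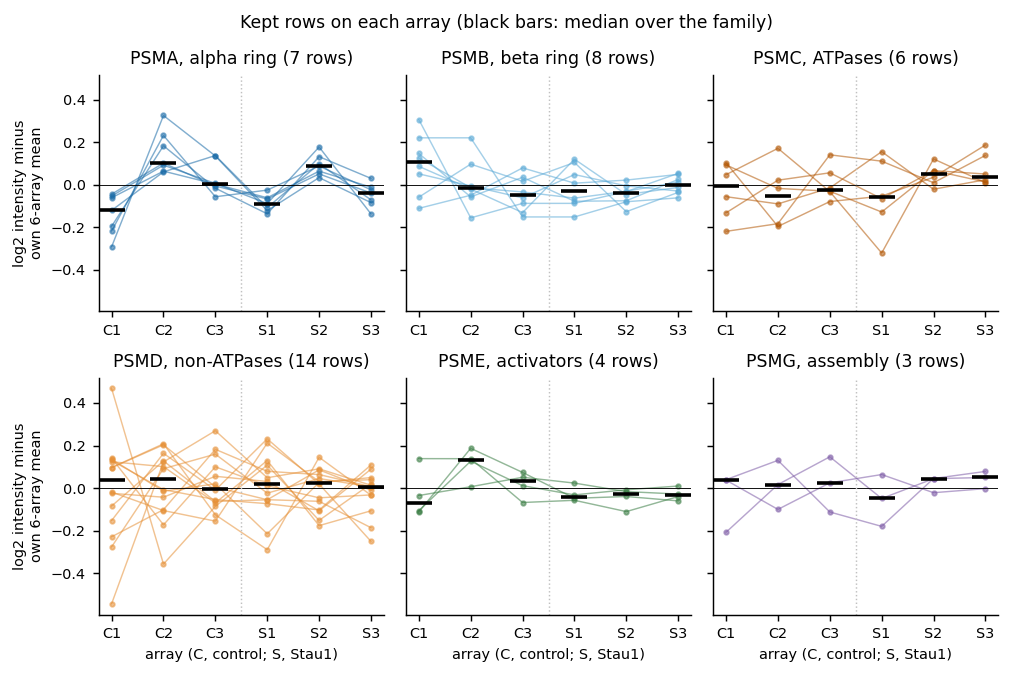
Log2 intensity minus the row's own mean over 6 arrays, for each kept row on each array (C, control; S, Stau1), by family, with the family median as a black bar. PSMA rows lie below 0 on C1 and S1 and above 0 on C2 and S2, while PSMB rows have a median of 0.11 on C1.

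Among genes that work with the proteasome, none passed the test. Of 26 genes listed (assembly, transcription factors of the pathway, ubiquitin receptors and deubiquitinases at the particle, ubiquitin genes and the VCP unfoldase) 25 were kept, 15 higher and 10 lower with a median change of 0.03, and 0 passed the test (limma, adjusted) or an unadjusted p under 0.05. The largest change was that of TXNL1, a thioredoxin-like protein bound to the regulatory particle, with log2 intensities of 8.54, 8.49 and 8.87 in control and 8.85, 9.01 and 8.73 in Stau1 samples, a change of 0.23 ± 0.14 (SE, n = 3 per group). NFE2L1, named for its role after its values were seen, had 9.38, 8.95 and 9.29 in control and 9.42, 9.28 and 9.51 in Stau1 samples, with overlapping groups and a change of 0.20 ± 0.14. NFE2L2, DDI2 and NGLY1 of the same list went the other way, with changes of -0.09, -0.05 and -0.19. POMP, the core assembly factor, was not kept, with several probes as for PSMF1. Of 11 genes of class I antigen presentation and its induction, 9 were kept, 2 higher and 7 lower with a median of -0.07, and 0 passed either threshold. HLA-B had the largest change, -0.18 ± 0.13, with 10.63, 10.36 and 10.22 in control and 10.39, 10.10 and 10.16 in Stau1 samples. TAP1, the peptide transporter whose gene lies between PSMB8 and PSMB9, was detected on all 6 arrays at log2 intensities from 9.88 to 10.17, while both of those were not above background.

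A few member counts depended on single arrays or on the weighting, and none of them passed adjustment. Without control replicate 3, PSMB4, PSMC5 and PSMD12 had an unadjusted p under 0.05 (3 of 42, against 13% of 12854 kept rows), with changes of -0.32, 0.29 and 0.22, and the lowest adjusted p of a member was 0.169 in limma. With array weights these were PSMB4, PSMC4 and PSMC5 (3 of 42, against 9.71%). Without control replicate 1 it was PSMA2 alone, with a change of -0.29 (1 of 42, against 4.06%), and by the methods' t-test it was PSMD11 (1 of 42, against 3.48%).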

How the data were processed

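Members, lists and tests were chosen with earlier results of these data known. The deposited table was, per the file headers, a gene profile exported from BeadStudio without normalization, 1 row per gene as the mean over its probes. It holds, per array, the authors' signal intensity, a deposited detection p-value against negative control beads, the bead standard error in intensity units, and the mean bead number (named a score here) as deposited. For kept members that standard error was 1.78% to 8.31% of the intensity, over 21 to 61 beads. The number of arrays limits the precision. The genome build of the probes is not given in the sources used here.

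Intensities were background-corrected with normexp (offset 16, limma 3.58.1 in R 4.3.3), quantile normalized and taken to log2. For the background, detection p-values were used of the 30932 rows of 1 probe (detection p in whole steps of 1 in 759, tolerance 0.002). Rows at a detection p under 0.05 on at least 3 arrays were fitted with lmFit and eBayes with a variance trend, Benjamini-Hochberg adjustment and a threshold of 0.05, after a test on simulated data. For rows of several probes, 18 of the 46 members, the filter acts on a combined detection p.

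Rows were named by rule: PSMB5 to PSMB10, PSME, PSMF and PSMG rows, the 5 kept members of lowest unadjusted p, the largest and smallest absolute change of each structural class, members not kept, and the largest change of the pathway and antigen presentation lists. Other members were also given with values, but their signs under the alternatives were not counted. Motifs were searched in RefSeq promoter windows (GRCh38.p14). Figures were drawn with matplotlib. A t-test, stated in the study for other arrays, was run two-sided with equal variances as an alternative, beside other background corrections, offsets, normalizations, filters and variance models, array weights, fits without 1 array and a fit with a replicate block.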

Additional observations from a re-analysis of the deposited data

How the results depend on the processing

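The count of 0 proteasome rows called was the same under all 17 alternatives. The methods' t-test was among these and was run with the main processing alone, and the others were limma fits. The count at an unadjusted p under 0.05 was 0, but 1 by the methods' t-test (PSMD11), 3 with array weights, and 0 to 3 on leaving out each array, 1 without control replicate 1 and 3 without control replicate 3; the fit without control replicate 3 called 36 of 12854 rows, 0 of them members. Median scaling gave median changes of 0.0589 over members, 0.0375 over core, 0.0813 over regulatory and 0.0281 over activator rows, where the median of all kept rows was 0.0679. On leaving out each array these medians ran from -0.0359 to 0.00788, -0.0653 to 0.00928, -0.0117 to 0.0164 and -0.0915 to -0.0218, lowest without control replicate 1. Of 407 values of the 26 members named by rule, 365 kept their sign and side of the threshold under the alternatives. The other 42 changed sign, in 17 rows, none past the threshold. The changes of sign were, with median scaling, PSMA6 0.0633, PSMB5 0.00650, PSMB6 0.0352, PSMB7 0.00841, PSMC1 0.0479, PSMD5 0.0544, PSME3 0.0685, PSME4 0.0786, PSMG2 0.0467 and PSMB8 -0.000396, and with array weights PSMB3 -0.000291. PSMD5 came to 0.00166 without background correction, 0.000621 when all rows set the background and 0.00128 with an offset of 50, and was not kept under the stricter filter. On leaving out each array in turn, the lowest and highest changes were PSMA2 -0.287 and 0.0191, PSMA6 -0.0396 and 0.0262, PSMB3 -0.0183 and 0.0390, PSMB6 -0.0987 and 0.0159, PSMB8 -0.0199 and 0.0423, PSMB9 -0.0960 and 0.0197, PSMB10 -0.0127 and 0.0967, PSMC1 -0.0708 and 0.0246, PSMD2 -0.0341 and 0.0639, PSMD5 -0.116 and 0.119, PSME3 -0.0353 and 0.00750, PSME4 -0.0779 and 0.0383, PSMG1 -0.0661 and 0.112, PSMG2 -0.104 and 0.0415, and PSMG3 -0.0175 and 0.0507. The cause of these changes of sign was not tested.

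Samples with the same replicate number were not read as pairs, since the deviations from the group means correlated at 0.02, 0.26 and -0.14 over rows for numbers 1, 2 and 3. With a replicate block 0 members were called, the members' median change was -0.02 and the lowest adjusted p of a member was 0.985. PSMA8, PSMB8 and PSMB9 were not above background, where differences cannot be read, and PSMA7 was little above it. The filter's combined detection p kept PSMF1 out although its intensities lay far above background.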
